A study of Mus musculus with 8 samples.

Results

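The 10 genes described here encode neuregulin and EGF-family ligands (Nrg1, Nrg2, Nrg4 and Hbegf), the ErbB receptor tyrosine kinases (Egfr, Erbb2, Erbb3 and Erbb4) and the homeodomain factors Meis1 and Meis2. They were chosen by gene symbol, 10 of the 27179 genes in the table of counts, and all 10 were found. Of these, 9 had enough counts to be tested for a difference between diesel exhaust (DE) and filtered air (FA), and Nrg2, with 69 counts over the 8 libraries, did not.
RNA was sequenced from neonatal cardiomyocytes (NCMs) of C57Bl/6 J male pups. Each of the 8 libraries came from 1 heart taken at postnatal day 0, freed of atria and large vessels, with adherent fibroblasts removed by plating in the presence of Ara-C. The dams of both groups were mated in FA, and from E0.5 to E17.5 they breathed either FA (4 libraries, replicates 2, 3, 4 and 6) or DE (4 libraries, replicates 1, 3, 5 and 7). No transgene is named for these mice, the agent was whole exhaust rather than a single compound, and the sources do not say which pups shared a dam. Whether the libraries of a group came from separate litters is thus unknown, and p-values measure the spread between these libraries.

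Neuregulins are made by endocardial and endothelial cells of the heart and signal to neighbouring cardiomyocytes. They bind Erbb4 or Erbb3, which pair with Erbb2, a receptor that has no known ligand of its own, and the pair activates the Ras-ERK and PI3K-Akt cascades. In the developing heart this pathway is required for trabeculation, and in newborn cardiomyocytes it is known for promoting growth and proliferation. Hbegf, which binds Egfr and Erbb4, is made by cardiomyocytes and is required for normal heart valves. Meis1 and its relative Meis2 are transcription factors that act with other homeodomain proteins, and Meis1 is known for restraining the division of cardiomyocytes after birth.

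The libraries held 17943024 to 39839737 counted fragments. Of all genes, 14966 were tested, and 868 of them (5.80%) were called by edgeR's quasi-likelihood test, 3.58% as higher and 2.22% as lower in DE. A call needed a difference of at least 25% and an adjusted p of at most 0.05. The names of DE replicates 3 and 5 contain the number 12 and those of the other 6 libraries the number 11, and what these numbers mean is not stated. No FA library has the number 12. A model term for the number thus leaves the exposure estimate to DE replicates 1 and 7 against FA, as in a fit to the number 11 libraries alone. The libraries also fell into close pairs within each group, FA replicates 2 and 4, FA replicates 3 and 6, DE replicates 1 and 7, and DE replicates 3 and 5. The 352 tested genes with a longest transcript of at least 10000 bases separated these pairs. Their median centred log2 CPM was 0.41 and 0.38 in FA replicates 2 and 4, -0.16 and -0.02 in FA replicates 3 and 6, 0.09 in both DE replicates 1 and 7, and -0.36 and -0.38 in DE replicates 3 and 5. Cardiomyocyte markers were abundant in every library, with 8 genes (Tnnt2, Actc1, Myh6, Myl2, Tnni3, Ryr2, Pln and Ttn) summing to 62210 to 68050 CPM (counts scaled to a common library size) in FA and 47030 to 55020 CPM in DE. All 8 had negative log2 fold changes and 2 fell, Myh6 by 0.67 (adjusted p = 0.00315) and Pln by 0.38 (adjusted p = 0.0360) on the log2 scale in the same test. Myh6 was called under all 21 alternatives and Pln under 10, and Pln lost its call without any FA library and without DE replicate 3 or 5 (adjusted p-values up to 0.116, log2 fold changes of -0.42 to -0.34 over all 8 omissions).

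Erbb2 was the only member called. It lies on chromosome 11, and the bases just before its transcription start are shown because this gene carries the main difference. They were taken from RefSeq (GRCm38.p6, chr11:98412234-98412483, plus strand, 250 bases), and capitals mark a CCAAT box.
Erbb2 promoter: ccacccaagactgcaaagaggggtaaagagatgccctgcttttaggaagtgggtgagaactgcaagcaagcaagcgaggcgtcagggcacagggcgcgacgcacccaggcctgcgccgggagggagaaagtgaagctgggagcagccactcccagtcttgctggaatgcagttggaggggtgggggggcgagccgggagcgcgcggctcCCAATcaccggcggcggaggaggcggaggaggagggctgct
The window held 16 CpG dinucleotides, more than 74.6% of 32851 promoter windows of the same length. Both strands were searched for 5 motifs, and 1 match was found, to the CCAAT box (letters CCAAT), which 33.8% of all windows held. No match was found to the TATA box (letters TATAAA, held by 12.4% of windows) or to the GC box (letters GGGCGG, 32.7%). The same was true of the AP-2 site (letters GCCNNNGGC, 13.7%) and of the ETS core (letters CCGGAA, 12.0%). These matches describe the sequence and do not show binding. Promoters of 6 of the 10 members were in the table used, and methylation was not analysed here.

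Levels of different genes were compared as CPM per kilobase of exon sequence. In FA, Hbegf was the most abundant member (20.1 ± 1.76, SD, n = 4, as are all such errors), followed by Erbb2 (12.8 ± 0.806), Meis2 (9.54 ± 0.796) and Meis1 (5.86 ± 0.289). The ranges of these 4 genes over the FA libraries did not overlap. Erbb3 (1.68 ± 0.253), Erbb4 (1.02 ± 0.628), Nrg4 (0.772 ± 0.200), Egfr (0.479 ± 0.122), Nrg1 (0.215 ± 0.0347) and Nrg2 (0.106 ± 0.0820) followed. Erbb4 overlapped with its neighbours Erbb3 and Nrg4, Nrg4 with Egfr, and Nrg1 with Nrg2. The order by mean was the same when the longest transcript was used in place of all exons. In DE the first 5 places were held by the same genes, but Erbb2 (8.80 ± 0.506) and Meis2 (8.45 ± 0.767) then overlapped. Summed over the 4 receptors, Erbb2 made up 76.8% to 85.7% of the level per kilobase in FA and 72.7% to 84.9% in DE. Libraries of either group thus held far more mRNA of the ligandless receptor than of its ligand-binding partners. The libraries also held RNA of other cell types, so these are not levels of cardiomyocytes alone. The size of the excess varied, as the counts of Erbb2 divided by those of Erbb4 ran from 3.24 (DE replicate 7) to 17.6 (DE replicate 5).

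**Figure D1:**
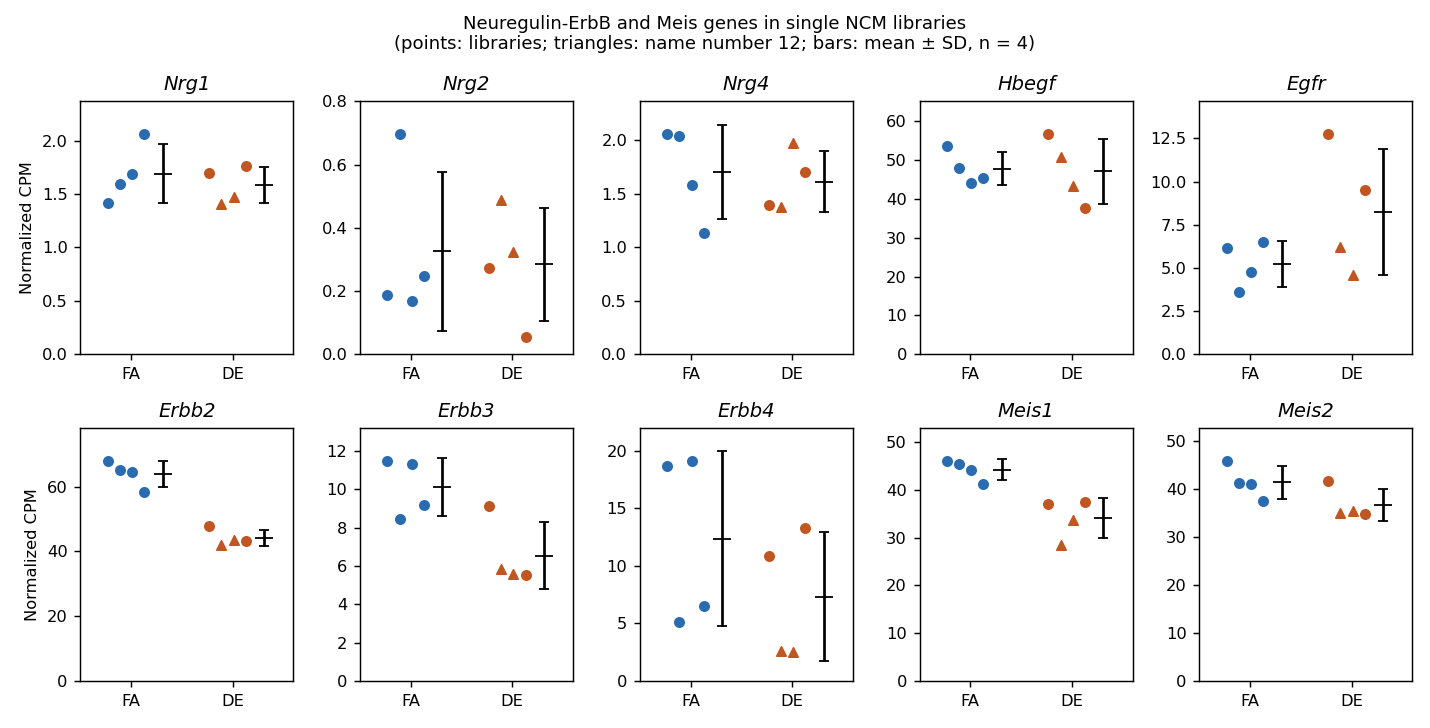
Normalized CPM (y axis, from 0) of the 10 members in each FA and DE library (circles, name number 11; triangles, name number 12), with mean ± SD for 4 libraries a group. Erbb2 and Meis1 have no overlap between the groups, while Erbb4 has 2 high and 2 low libraries in both groups.

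Among the receptors, Erbb2 was lower in every DE library than in any FA library. Its level was 68.0, 65.0, 64.6 and 58.4 CPM in FA replicates 2, 3, 4 and 6, and 47.8, 42.03, 43.4 and 43.2 CPM in DE replicates 1, 3, 5 and 7. The gap between the groups was wider than the range within either of them. Erbb2 (Entrez 13866, GRCm38.p6 chromosome 11 between 98412484 and 98437716) averaged 64.0 ± 4.04 CPM in FA and 44.1 ± 2.54 CPM in DE, and it fell by 0.54 on the log2 scale (standard error 0.09, 95% interval of the log2 fold change -0.74 to -0.34). Its adjusted p in edgeR's quasi-likelihood test was 0.00956. Beside it, 2.22% of all tested genes were called lower in DE. The groups of 14.7% of all tested genes did not overlap in either direction, and those of Erbb2 and Meis1 were among them. Erbb2 stayed called without any single library, with log2 fold changes of -0.58 to -0.51 and adjusted p-values of 0.00873 to 0.0422. With the number 11 libraries alone Erbb2 changed by -0.50 (adjusted p = 0.0640) and was not called. With the number as a term it was called (-0.49, adjusted p = 0.0369). That estimate is also of DE replicates 1 and 7 against FA, with DE replicates 3 and 5 adding only to the estimate of spread. The call was also lost with the 25% difference built into the test (adjusted p = 0.169). DE replicates 1 and 7 had a mean of 45.5 CPM and DE replicates 3 and 5 a mean of 42.7 CPM, so both pairs lay below FA. In pooled cells, fewer cells of a type and less RNA per cell cannot be told apart. All 4 sums of cardiomyocyte markers in DE also lay below those in FA (the median over the markers was -0.29 on the log2 scale). Much of the difference in the sums was Myh6, which averaged 23300 CPM in FA and 14620 CPM in DE, and the log2 fold changes of the markers that were not called were -0.80 for Ttn (adjusted p = 0.0562), -0.62 for Ryr2, -0.20 for Actc1, -0.06 for Tnnt2, -0.06 for Tnni3 and -0.05 for Myl2. The part of the lower marker sums in the lower level of Erbb2 was not tested. The tested genes closest to Erbb2 in their centred log2 CPM over the 8 libraries were Armh3 (root mean square distance 0.0486) and 4930539J05Rik (0.0540).

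Erbb3, which binds neuregulins but has a weak kinase of its own, was at 11.5, 8.47, 11.3 and 9.20 CPM in FA replicates 2, 3, 4 and 6, and at 9.14, 5.85, 5.56 and 5.54 CPM in DE replicates 1, 3, 5 and 7. DE replicate 1 lay within the FA range and the other 3 DE libraries lay below it. The log2 fold change was -0.63 (standard error 0.19, 95% interval -1.04 to -0.23, adjusted p = 0.0677), so Erbb3 (chromosome 10 from 128567523 to 128589635) was not called by edgeR's quasi-likelihood test. Without DE replicate 1 the value was -0.84 and the gene was called (adjusted p = 0.0127), and DESeq2 also called it (adjusted p = 0.0207), as did edgeR's likelihood ratio test (adjusted p = 0.0236). With the offsets for transcript length and GC content the value was -0.55, and Erbb3 was called (adjusted p = 0.0225). Within the number 11 the value was -0.45 (adjusted p = 0.323). Erbb3 is expressed in Schwann and neural crest cells as well, and 8 markers of these cells summed to 9.82 to 19.3 CPM in FA and 9.86 to 11.2 CPM in DE. Of the 8 markers, 5 were tested and none was called (2 had an unadjusted p under 0.05), and Sox10, which defines these cells, had 64 counts over the 8 libraries.

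Erbb4, the neuregulin receptor of cardiomyocytes, differed more within the groups than between them. It was at 18.7, 5.08, 19.1 and 6.54 CPM in FA replicates 2, 3, 4 and 6, and at 10.8, 2.64, 2.47 and 13.3 CPM in DE replicates 1, 3, 5 and 7. In each group 2 libraries were high and 2 were low, and the highest exceeded the lowest by 3.76-fold in FA and 5.40-fold in DE. The high libraries were FA replicates 2 and 4 and DE replicates 1 and 7, the same as those with the higher levels of long transcripts. The longest transcript of Erbb4 has 12037 bases, and the part of the length trend in its spread was not tested. The log2 fold change was -0.80 (standard error 0.58, 95% interval -2.06 to 0.46, edgeR's quasi-likelihood adjusted p = 0.404), and it was, after offsets took out the length and GC trends of every library, -0.54 (standard error 0.41, adjusted p = 0.393). Within the number 11 it was -0.05 (adjusted p = 0.972). With this spread, the interval for Erbb4 (chromosome 1 from 68031884 to 69108576) left room for a large decrease in DE and for a smaller increase.

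Egfr, the receptor of EGF and Hbegf, was the only tested member with a positive log2 fold change. It was at 6.15, 3.59, 4.74 and 6.49 CPM in FA replicates 2, 3, 4 and 6, and at 12.8, 6.20, 4.56 and 9.49 CPM in DE replicates 1, 3, 5 and 7. DE replicates 1 and 7 lay above all FA libraries, while DE replicates 3 and 5 lay within the FA range. The log2 fold change was 0.64 (standard error 0.30, 95% interval -0.02 to 1.30, adjusted p = 0.207), so Egfr (chromosome 11 from 16752203 to 16913907) was not called by edgeR's quasi-likelihood test. It was called within the number 11 (1.08, adjusted p = 0.0386), with that number as a term (1.08, adjusted p = 0.0284) and with the offsets for length and GC content (0.84, adjusted p = 0.0277). The first 2 of these fits both set DE replicates 1 and 7 against FA, so they are not separate results. Without DE replicate 1 the value of Egfr was 0.33 (adjusted p = 0.434).
Cardiac fibroblasts also express Egfr, and their markers differed between the libraries. The 8 markers (Col1a1, Col1a2, Col3a1, Pdgfra, Postn, Dcn, Tcf21 and Lum) summed to 3110, 2008, 2915 and 3461 CPM in FA replicates 2, 3, 4 and 6, and to 6177, 4698, 3655 and 4534 CPM in DE replicates 1, 3, 5 and 7. The lowest sum and the lowest Egfr level were both in FA replicate 3, and the highest of both in DE replicate 1. The match was partial, since the sums of DE replicates 3 and 5 lay above every FA library while their Egfr levels lay within the FA range, and DE replicate 3 had a higher sum but a lower Egfr level than DE replicate 7. All 8 markers had positive log2 fold changes (median 0.66), none was at 0 in any library, and 2 rose, Col1a1 by 0.95 (adjusted p = 0.00874) and Dcn by 0.56 (adjusted p = 0.0472) on the log2 scale in the same test. Col1a1 was called under all 21 alternatives and Dcn under 12, and Dcn kept its call only without FA replicate 6 or DE replicate 5 when single libraries were left out (adjusted p-values up to 0.140, log2 fold changes of 0.48 to 0.69). The most abundant of them, Col3a1, had a value of 0.67 (adjusted p = 0.0677). The part of fibroblast RNA in the level of Egfr was not tested. The longest transcript of Egfr has 10208 bases, which places it among the 352 genes with long transcripts. Their median was lowest in DE replicates 3 and 5 (-0.36 and -0.38). The part of the length trend in the level of Egfr was not tested either.

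**Figure D2:**
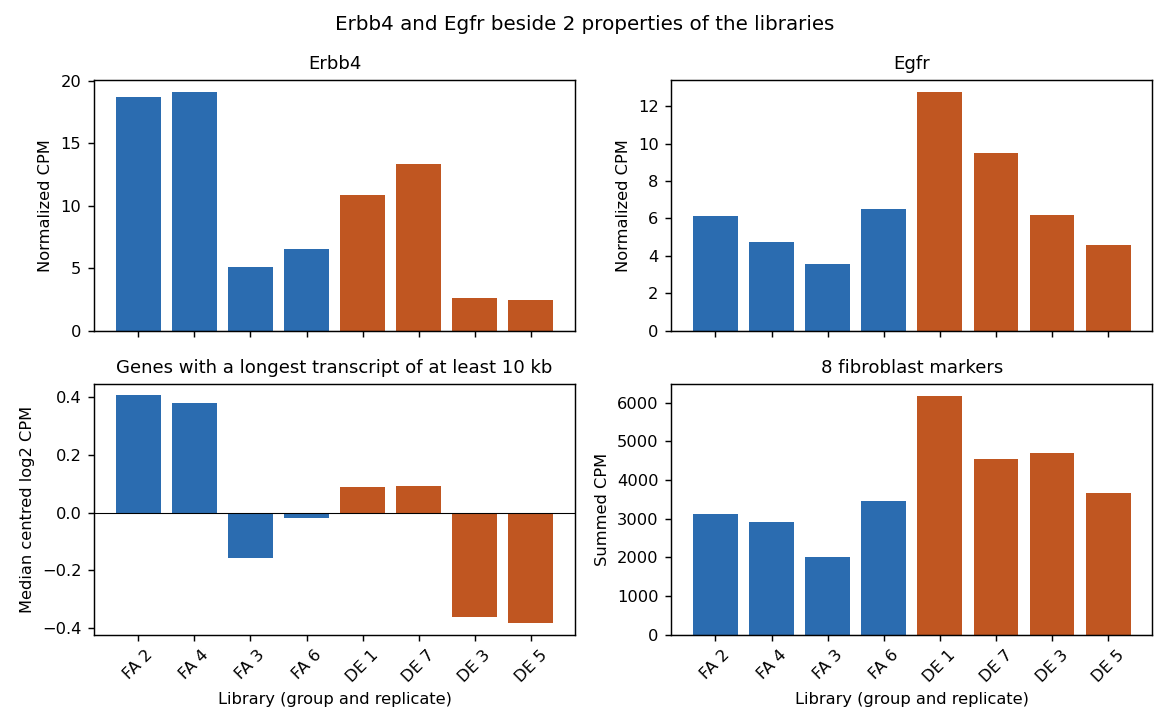
Erbb4 and Egfr (upper panels, normalized CPM), the median centred log2 CPM of 352 genes with long transcripts (lower left) and the summed CPM of 8 fibroblast markers (lower right), 1 bar a library, blue for FA and orange for DE. Erbb4 is high in the 4 libraries whose long transcripts lie above 0, and Egfr and the fibroblast sum are both highest in DE replicate 1 and lowest in FA replicate 3.

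None of the ligands was called. Hbegf (chromosome 18 from 36504927 to 36515805), the main ligand of these cells by level, was at 53.6, 48.1, 44.2 and 45.4 CPM in FA replicates 2, 3, 4 and 6, and at 56.8, 50.9, 43.3 and 37.7 CPM in DE replicates 1, 3, 5 and 7. The groups overlapped throughout, with a log2 fold change of -0.02 (standard error 0.13, 95% interval -0.31 to 0.27, edgeR's quasi-likelihood adjusted p = 0.942).
Nrg1 (chromosome 8 from 31807452 to 32891609), the neuregulin of endocardium and endothelium, was low, at 1.42, 1.59, 1.69 and 2.07 CPM in FA replicates 2, 3, 4 and 6 and at 1.69, 1.41, 1.47 and 1.76 CPM in DE replicates 1, 3, 5 and 7. Its log2 fold change was -0.09 (95% interval -0.51 to 0.32, adjusted p = 0.783 in the same test) and rested on 354 counts. Endothelial and endocardial cells were present in the preparation, with 10 markers summing to 1120 to 1442 CPM in FA and 1148 to 1689 CPM in DE, and none of the 10 was called (3 at an unadjusted p under 0.05). Pecam1, the most abundant of these markers over both groups, had a log2 fold change of 0.37 (adjusted p = 0.162). The 3 markers at an unadjusted p under 0.05 were all higher in DE, with Emcn at 0.51 (adjusted p = 0.0592) and Egfl7 at 0.60 (adjusted p = 0.0732) beside Pecam1, while Cdh5, the most abundant in FA, was at 0.01 (adjusted p = 0.973). Emcn, Egfl7 and Cdh5 were chosen after their values were seen.
Nrg4 (chromosome 9 from 55220222 to 55283654), an Erbb4 ligand best known from brown fat, lay between 1.13 and 2.06 CPM in FA and between 1.38 and 1.97 CPM in DE, with a log2 fold change of -0.10 (95% interval -0.60 to 0.41, adjusted p = 0.820). Nrg2 (chromosome 18 from 36014581 to 36197532) had 1 to 17 counts a library, which is 0.169 to 0.698 CPM in FA and 0.0533 to 0.488 CPM in DE, and it was not tested for a difference.

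Meis1 was lower in every DE library than in any FA library, but by a smaller step than Erbb2, and it was not called. It was at 46.1, 45.5, 44.1 and 41.2 CPM in FA replicates 2, 3, 4 and 6, and at 37.1, 28.5, 33.6 and 37.5 CPM in DE replicates 1, 3, 5 and 7. The log2 fold change of Meis1 (chromosome 11 from 18880428 to 19019651) was -0.37 (standard error 0.11, 95% interval -0.61 to -0.14, edgeR's quasi-likelihood adjusted p = 0.0639). DESeq2 called the gene (adjusted p = 0.0229), as did edgeR's likelihood ratio test (adjusted p = 0.0331). With the offsets for transcript length and GC content the value was -0.17 (adjusted p = 0.356), and within the number 11 it was -0.25 (adjusted p = 0.298). The lowest level was in DE replicate 3, and without that library the value was -0.30 (adjusted p = 0.169).
Meis2 (chromosome 2 from 115861264 to 116067537) was at 46.0, 41.4, 41.1 and 37.5 CPM in FA replicates 2, 3, 4 and 6, and at 41.7, 34.9, 35.4 and 34.9 CPM in DE replicates 1, 3, 5 and 7. The groups overlapped because DE replicate 1 lay above 3 of the FA libraries. The log2 fold change was -0.18 (standard error 0.10, 95% interval -0.40 to 0.05, adjusted p = 0.302 in the same test). Meis1 and Meis2 are paralogs of similar sequence, and how shared reads were counted is not stated. The exons of Meis1 also share 1029 bases with Gm37818 on the same strand. Overlaps with genes on the other strand were 442 bases for Nrg1, 166 for Nrg4 and 9 for Erbb2, and the strand setting of the counting is not stated. The counts of Meis1 divided by those of Meis2 gave 1.00 to 1.10 in FA and 0.816 to 1.08 in DE.

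**Figure D3:**
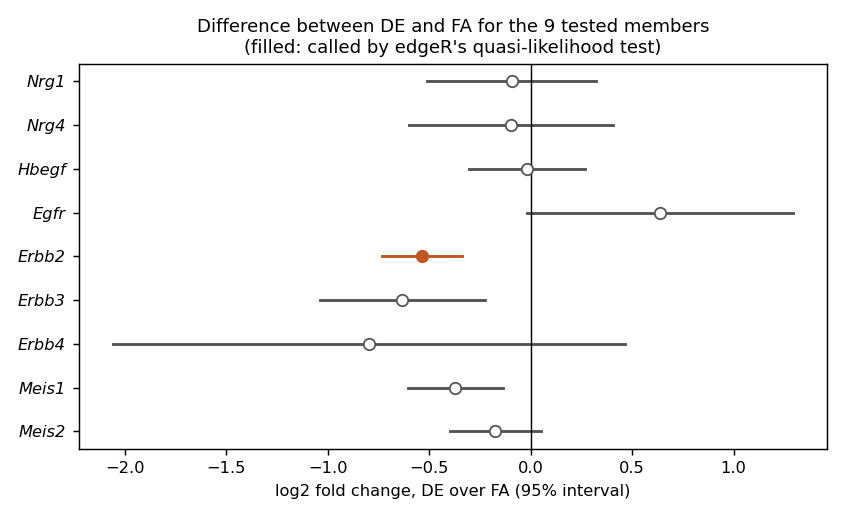
Log2 fold change of DE over FA (x axis) with 95% interval for the 9 tested members, filled where called. The intervals of Erbb2, Erbb3 and Meis1 lie below 0, and that of Erbb4 is the widest.

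Over the 9 tested members, 8 had negative log2 fold changes and the median was -0.18, against 0.00 over all tested genes. At an unadjusted p under 0.05 there were 3 members (Erbb2, Erbb3 and Meis1), where 25.6% of all tested genes passed the same threshold.

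Around the members, 75 of 81 genes in 6 lists of the pathway were tested and 5 were called, all lower in DE. This is 6.67% of them, beside 2.22% of all tested genes called lower and 5.80% called in either direction. The 4 called genes among 40 tested adaptors and kinases of the ErbB cascades fell by 0.64 (Pik3r3), 0.61 (Stat5a), 0.56 (Mtor) and 0.47 (Nck1) on the log2 scale, with adjusted p-values of 0.0125, 0.0226, 0.0231 and 0.0349 in edgeR's quasi-likelihood test. Pik3r3, a regulatory subunit of PI3K, lay between 51.7 and 63.1 CPM in FA and between 32.8 and 45.3 CPM in DE. Stat5a, a transcription factor that Erbb4 can activate, ranged over 14.3 to 18.3 CPM in FA libraries and 9.06 to 12.1 CPM in DE libraries. Mtor, the growth kinase downstream of Akt, lay between 81.7 and 109.1 CPM in FA and between 61.1 and 71.3 CPM in DE. Nck1, an adaptor between receptors and the actin cytoskeleton, had 34.9 to 40.9 CPM in FA libraries and 24.3 to 31.8 CPM in DE libraries. None of these 4 genes overlapped between the groups, which held for 10 of the 40 genes of the list and 14.7% of all tested genes. Of the 40 genes, 27 had negative values, and the median was -0.13. An unadjusted p under 0.05 was found for 13 of them, and 3 of these were higher in DE, namely Mapk3 (0.35, adjusted p = 0.0798) and Map2k1 (0.42, adjusted p = 0.0976), kinases of the ERK cascade, and the adaptor Shc2 (0.42, adjusted p = 0.176), all named after their values were seen. Pik3r3 stayed called without any single library, while Nck1 lost its call without any library but DE replicate 7 (adjusted p-values of 0.0545 to 0.0902, log2 fold changes of -0.51 to -0.43). Mtor lost its call without FA replicate 2 or 4 or DE replicate 3 or 5 (adjusted p-values of 0.0505 to 0.0829, log2 fold changes of -0.55 to -0.49). Stat5a lost it without FA replicate 2 or 4 or DE replicate 3 (adjusted p-values of 0.0638 to 0.0838, log2 fold changes of -0.61 to -0.54). With the number in the sample name as a term, none of the 5 pathway genes was called (adjusted p-values of 0.0533 to 0.162), though all kept their direction, with log2 fold changes of -0.53 for Pik3r3, -0.59 for Stat5a, -0.52 for Mtor, -0.42 for Nck1 and -0.39 for Bace1. These values too are for DE replicates 1 and 7 against FA.
Among 9 tested genes of ligand shedding, Bace1, a protease that can cleave Nrg1, fell by 0.54 on the log2 scale (adjusted p = 0.0373), from 67.1 ± 6.95 to 46.0 ± 8.37 CPM. Its call was lost without FA replicate 2, 3 or 4 or without DE replicate 3, 5 or 7 (adjusted p-values of 0.0556 to 0.123), with log2 fold changes of -0.59 to -0.48 in these fits. Of the other shedding genes, the most abundant by CPM were Adam9 (-0.12), Nrdc (-0.08) and Adam19 (-0.22), a protease of neuregulins, and none of them was called. An unadjusted p under 0.05 was found for 2 genes of the list, Bace1 and Adam10 (-0.41, adjusted p = 0.145). Adam10 was named after its value was seen.
Of 9 tested attenuators of ErbB signalling, none was called (4 had an unadjusted p under 0.05), with a median of -0.13. The log2 fold changes were -0.11 for Ptpn12, a phosphatase, -0.13 for Lrig1 and -0.29 for Lrig2, of a family of receptor inhibitors, and -0.18 for Cblb, a ubiquitin ligase. These are the 4 most abundant of the list by CPM over both groups, though in DE alone Errfi1 was above Lrig2 and Cblb. Those at an unadjusted p under 0.05 were split in direction, with Lrig2 and Rnf41 (-0.24) lower and Lrig3 (0.51) and Errfi1 (0.32) higher in DE, the last 3 named after their values were seen. Of 6 tested further ligands, 0 were called and 0 had an unadjusted p under 0.05, and Tgfa (0.16), Egf (-0.11), Ereg (0.58, 95% interval -0.21 to 1.37) and Btc (-0.10) were the most abundant. Without DE replicate 1 the value of Ereg was 0.10. Nrg3 had 1 count over the 8 libraries.
None of 8 tested partners and relatives of Meis1 was called, with 1 at an unadjusted p under 0.05. That gene was Meis3, named after its value was seen, which was higher in DE (0.49, adjusted p = 0.1315). Log2 fold changes were 0.01 for Tgif2, -0.13 for Pbx2 and 0.16 for Tgif1. Hoxb13, a partner in postnatal cardiomyocytes, had 0 counts in all 8 libraries, where 3 counts in a library, the limit that a count of 0 allows, are 0.0748 to 0.169 CPM. The cell cycle inhibitors linked to Meis1 had positive values without a call, with 0.34 for Cdkn1a (adjusted p = 0.127), 0.31 for Cdkn2c (adjusted p = 0.103) and 0.20 for Cdkn2b (adjusted p = 0.569). Of these, Cdkn2c had no overlap between the groups, as did 14.7% of all tested genes, with 13.0 to 15.5 CPM in FA libraries and 16.3 to 19.0 CPM in DE libraries. Cdkn2a had 20 counts over the 8 libraries and was not tested.

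**Figure D4:**
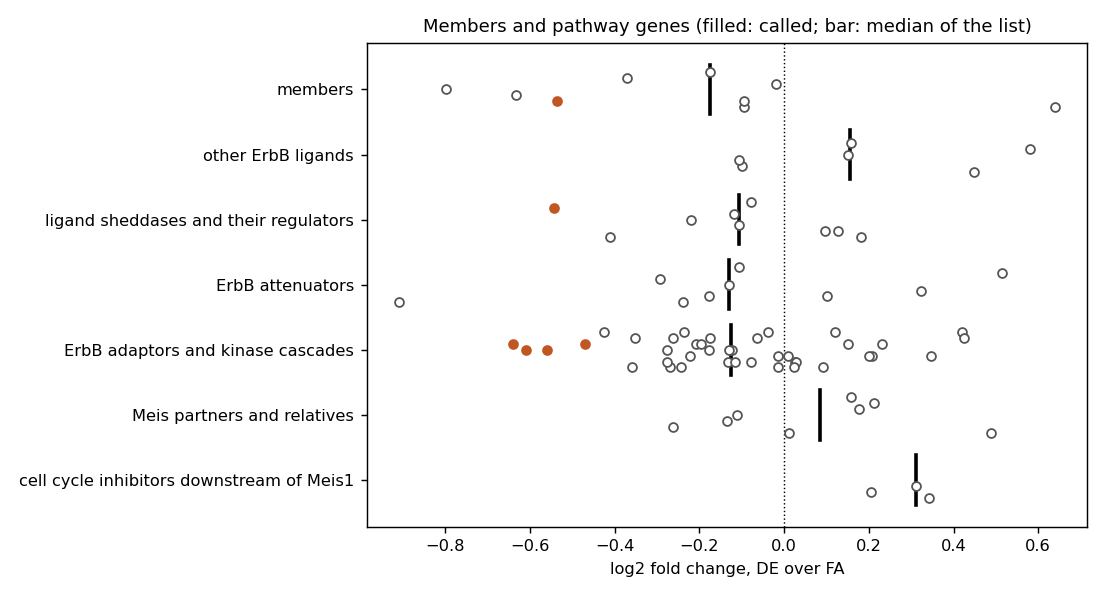
Log2 fold change of DE over FA (x axis) of each tested member and pathway gene, grouped by list, filled where called, with the median of each list as a bar. The 6 filled points, Erbb2 and 5 pathway genes, all lie below 0.

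Other cell types were looked for through their markers. The 8 markers of smooth muscle and pericytes summed to 1162 to 1817 CPM in FA and 825.7 to 1258 CPM in DE. None of them was called and 1 had an unadjusted p under 0.05 in edgeR's quasi-likelihood test. The sums were mostly Acta2, which averaged 1151 CPM in FA and 745.9 CPM in DE (log2 fold change -0.63, adjusted p = 0.0562), while 5 of the 8 markers had positive values and the median was 0.11. Leukocyte markers summed to 12.3 to 18.7 CPM in FA and 15.4 to 26.4 CPM in DE, with 5 of 8 tested and 0 called (2 at an unadjusted p under 0.05), and the most abundant, Cd68, had a value of 0.65 (adjusted p = 0.0813). The 6 epicardial and mesothelial markers summed to 99.3 to 132.0 CPM and 100.8 to 141.1 CPM, with 0 called and 0 at an unadjusted p under 0.05, and Msln, the most abundant, was at -0.09 (adjusted p = 0.777). Of 5 erythroid markers found, 1 rose, Slc4a1 by 0.95 (adjusted p = 0.0422), while the more abundant Hba-a1 was at 0.42 (adjusted p = 0.344), and their sums were 429.1 to 1023 CPM in FA and 674.2 to 1123 CPM in DE. Slc4a1 was called under 12 of 21 alternatives and, with single libraries left out, only without DE replicate 5 or 7 (adjusted p-values up to 0.124, log2 fold changes of 0.74 to 1.07).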

How the data were processed

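Libraries were stranded and poly-A enriched. Per the labels and methods, the authors used TopHat (mm10, Ensembl v67 transcripts) for alignment, Picard to mark but keep duplicates, GATK for realignment, and featureCounts to obtain fragment counts for each Entrez gene. The deposited values are raw counts without normalization, and the strand setting, the counting annotation and the treatment of multi-mapping reads are not given in the sources used here. Duplicates left in the counts overstate the precision that counting gives. Entrez genes were matched to symbols through RefSeq genes on GRCm38.p6 (25275 of 27179). Genes were kept with edgeR's filterByExpr at a minimum count of 10, given TMM factors, and fitted in R 4.3.3 by the quasi-likelihood functions glmQLFit and glmQLFTest of edgeR 4.0.16. The model held exposure alone, all 8 libraries entered, and p-values were adjusted by Benjamini and Hochberg's method across the genes tested. The study's methods state fewer libraries per group than the table holds, and all were used. CPM used the same factors. Exon and transcript lengths came from GENCODE M21.
Members and lists were chosen with earlier results of these data known, and the lists were written from general knowledge. Named genes were all members, the called genes of each pathway list (with its most abundant genes up to 4 in all), the called and the most abundant gene of each marker list, and the 2 genes closest to each called member. Of these, 2 genes are not reported here. Alternatives were other scaling factors and filters, DESeq2 1.42.0, edgeR's likelihood ratio test, limma-voom (limma 3.58.1), the 25% difference within the test, a term for the number in the name, the number 11 libraries alone, and each library left out. Offsets from splines on transcript length and GC content (5 degrees of freedom), for the 92.55% of tested genes with both known, and the same genes without offsets were alternatives added after the data were seen. The code was tested on simulated data. Intervals and count limits cover counting error or spread between libraries only.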

Additional observations from a re-analysis of the deposited data

Results flagged for a closer look

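A single library stood apart from the other 3 of its group in 3 of the 20 groups of member values that were examined, where chance gives about 1 in 20. FA replicate 3 had 0.698 CPM of Nrg2, which is 14 counts, while the other FA libraries had at most 0.246 CPM. DE replicate 1 had 9.14 CPM of Erbb3, while the other DE libraries had at most 5.85 CPM. DE replicate 1 also had 41.7 CPM of Meis2, while the other DE libraries had at most 35.4 CPM.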

How the results depend on the processing

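The count of 1 called member became 3 with DESeq2, the likelihood ratio test or the offsets for transcript length and GC content, 2 with the number in the sample name as a term and 0 with the 25% difference built into the test. It was 1 to 2 when single libraries were left out. The count of 5 called pathway genes became 0 with the built-in difference, with the name number as a term and with the libraries of number 11 alone, and it was 1 to 6 when single libraries were left out (1 without FA replicate 2, FA replicate 4 or DE replicate 3, 2 without DE replicate 5 and 3 without FA replicate 3). The calls over all genes ranged from 114 with the built-in difference to 1613 with DESeq2, and were 237 without FA replicate 4, 249 without FA replicate 2, 268 without DE replicate 3, 260 with the number 11 alone, 448 with the name number as a term, 1534 with the offsets and 1603 with the likelihood ratio test. Of the log2 fold changes of named genes under the alternatives, 834 kept direction and side of the threshold, 74 lost the call, 25 gained it and 30 turned sign. All that turned sign belonged to genes with no call. Nrg1 became 0.0413 with the name number as a term, 0.0362 with the number 11 alone and 0.0413 with the offsets (-0.184 to 0.0143 without single libraries), Nrg4 spanned -0.245 to 0.0231 and Hbegf -0.123 to 0.0655 without single libraries, and Hbegf became 0.00682 with upper quartile factors and 0.0555 with library totals. With the name number as a term and with the number 11 alone, Egf became 0.0441 and 0.0407, Btc 0.0731 and 0.0687, Adam9 0.0820 and 0.0776, Cblb 0.0950 and 0.0909, and Tgif1 -0.0484 and -0.0531. With the offsets, Btc became 0.00218, Tgif2 -0.0699 and Cdkn2b -0.0237. Without single libraries, Tgif2 spanned -0.0506 to 0.0819 and Msln -0.195 to 0.0347. The causes were not tested. No paired analysis was possible because the groups share only the replicate number 3.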

Other observations

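The genes in this paragraph were chosen after their values were seen. The tested genes with the profile closest to Egfr over the 8 libraries were Col14a1 (root mean square distance 0.156 on the log2 scale) and Pdgfra (0.161), a collagen and a growth factor receptor of fibroblasts. Those closest to Erbb4 were Zbed6 (0.118) and Lmbrd2 (0.149). Those closest to Hbegf were Ficd (0.0585) and Fos (0.0652), an immediate early gene.

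Ratios of counts within a library do not depend on library scaling. The counts of Egfr divided by those of Erbb4 were 0.248 to 0.993 in FA and 0.712 to 2.35 in DE. As a share of the summed level per kilobase of the 4 receptors, Egfr made up 2.16% to 4.14% in FA and 4.08% to 8.89% in DE, with DE replicate 5 the only DE library within the FA range. Erbb2 makes up most of this sum and was lower in DE, which by itself raises the shares of the other receptors. By level in CPM, DE replicate 3 (6.20) also lay within the FA range of Egfr (3.59 to 6.49). Erbb3 made up 9.31% to 11.2% in FA and 8.0% to 11.6% in DE. The counts of Hbegf divided by those of Nrg1 were 22.0 to 37.8 in FA and 21.4 to 36.2 in DE. These ranges are descriptions with no test.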
